A study of Mus musculus with 7 samples.

Results

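The basal and epidermal keratinocyte genes considered here are 10 genes of stratified epithelium: the keratin genes *Krt1*, *Krt5*, *Krt6a*, *Krt10*, *Krt14*, *Krt15* and *Krt17*, the transcription factor gene *Trp63*, the desmosomal cadherin gene *Dsg3* and *Krtdap*, which encodes a secreted protein of differentiating keratinocytes. They were taken by gene name, and all 10 were found among the 38026 genes of the deposited table. RNA was sequenced from 7 subcutaneous (s/c) pancreatic ductal adenocarcinoma (PDA) tumors, taken 2 weeks after inoculation of C57BL/6 mice with the KPC line 1242. That line came from a mouse pancreatic tumor, and both groups share it, so that each tumor stems from 1 parental line. In the 4 sgScramble tumors the cells had received Cas9 and a scrambled guide, and in the 3 sgKrt19 tumors (numbered 5, 6 and 8) Cas9 and a guide against *Krt19*. Neither group was treated further. Mice were bought at 6 weeks of age and housed for 2 weeks before use. The labels give neither the *Krt19* guide nor whether the cells were a polyclonal line or a clone. The host keeps its own skin, muscle and stroma, and whether any of it entered the dissected pieces is not stated, although tumors with a visible skin ulcer were left out by the study.

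Keratins are intermediate filament proteins that assemble as obligate pairs of a type I and a type II chain. Simple epithelia, such as the pancreatic duct, use KRT8 with KRT18 and KRT19. In epidermis, basal cells attached to the basement membrane make KRT5 with KRT14, often with KRT15, under the transcription factor p63 encoded by *Trp63*. Cells that leave the basal layer change to KRT1 with KRT10 and then build the cornified envelope, whereas wounded or hyperproliferative epidermis makes KRT6 with KRT16 or KRT17. Expression of this programme in pancreatic cancer is known as a basal-like or squamous trait.

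The keratinocyte genes were read at low levels in these tumors, and 1 of them, *Krt15*, passed the test of a difference between the groups. The deposited values are normalized reads, that is reads divided by a size factor for each library, so that 1 read was worth close to 1 normalized read. The libraries held 40781199 to 44972100 reads, and the sum over the 10 genes came to only 197 to 280 reads per sgScramble library and 226 to 260 per sgKrt19 library. Of the 10 genes, 4 (*Krt10*, *Krt14*, *Krt15* and *Trp63*) passed the filter of 10 normalized reads in at least 3 libraries and were tested. The tested genes are therefore those with measurable reads and not the whole set. With limma and Benjamini-Hochberg adjustment over all genes tested, 1 of the 4 had an adjusted p below 0.05, *Krt15*, which was higher in sgKrt19 tumors. Of all 21322 genes tested, 34.0% passed in either direction, and 17.9% were higher in sgKrt19 tumors, and with 4 genes tested 1 call is no result about the set. The other 6 genes (*Krt1*, *Krt5*, *Krt6a*, *Krt17*, *Dsg3* and *Krtdap*) did not reach 10 normalized reads in 3 libraries, and 3 of them (*Krt1*, *Krt6a* and *Krt17*) never exceeded 3 reads, the count taken here as the limit of detection. In bulk tumor RNA, fewer cells of a type and less RNA per cell cannot be told apart.

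The label check held. *Krt19*, the edited gene, lay between 17841 and 27618 normalized reads in sgScramble tumors and between 1606 and 2470 in sgKrt19 tumors (log2 fold change −3.52, SE 0.183, adjusted p = 1.74e-05). None of 10 simple epithelial markers was at 0 in any library. Of these 6 passed as higher and none as lower (median log2 fold change 0.71). *Krt7*, which did not pass, was at −1.03 (SE 0.472, limma adjusted p = 0.115). The 10 markers summed to 148460 to 202490 normalized reads in sgScramble and 308660 to 319410 in sgKrt19 tumors, mostly from *Krt8* and *Krt18*. Of all genes tested, 34.0% passed in either direction, 17.9% as higher and 16.0% as lower. Beside *Krt19*, the sum of 10 skeletal muscle genes was 136 to 2945 normalized reads in sgScramble tumors, highest in replicate 3, and 24243 to 32969 in sgKrt19 tumors, and all 10 rose. Of 6 leukocyte markers 3 rose, with sums of 16551 to 24996 and 21404 to 36022, and of the adipocyte, melanocyte and fibroblast markers tested (5, 1 and 6) none passed. Their part in the results that follow was not tested.

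**Figure D1:**
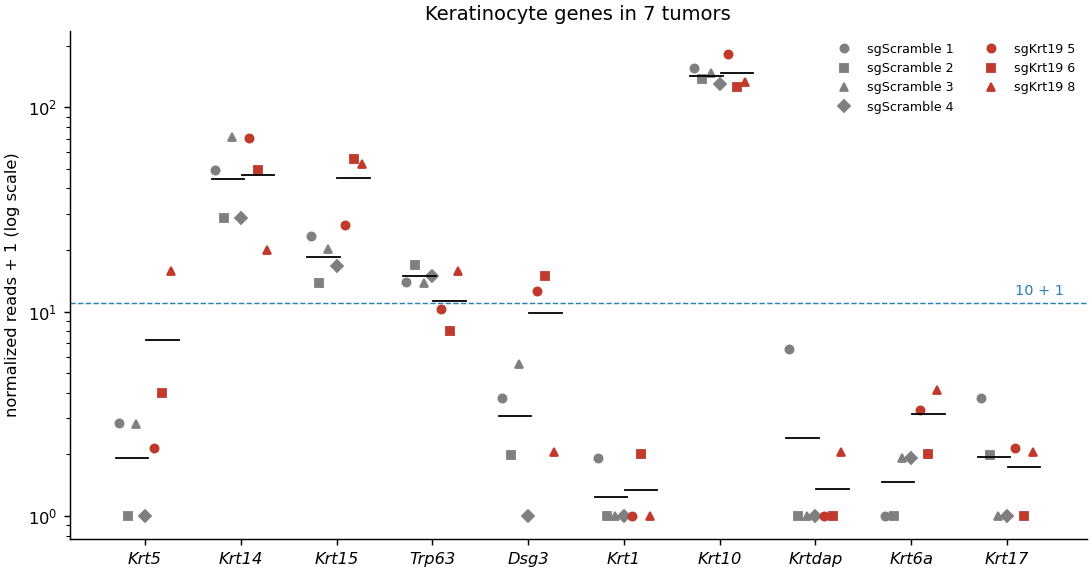
Normalized reads plus 1 (log scale) for the 10 keratinocyte genes in each of 4 sgScramble (grey) and 3 sgKrt19 (red) tumors; black bars are group means plus 1 and the dashed line is the filter of 10. *Krt10* is above 100 in all 7 tumors, and *Krt15* lies between 12.8 and 22.3 in sgScramble and between 25.4 and 55.0 in sgKrt19 tumors. *Krt6a* stays at or below 3 reads, with 1 read each in sgKrt19 tumor 6 and sgScramble tumors 3 and 4.

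The basal genes differed from one another. *Krt15* encodes a type I keratin of basal keratinocytes and of hair follicle stem cells. Its gene lies on the reverse strand at chr11:100131758-100135928 (GRCm38). *Krt15* had 22.3, 12.8, 19.2 and 15.8 normalized reads in sgScramble tumors 1 to 4 and 25.4, 55.0 and 51.5 in sgKrt19 tumors 5, 6 and 8. The groups did not overlap, which also held for 41.1% of all genes tested, and tumors 6 and 8 stood well above tumor 5. The means were 17.5 ± 4.10 (SD, n = 4) and 44.0 ± 16.1 (SD, n = 3) normalized reads, a log2 fold change of 1.23 with an SE of 0.337 (limma, adjusted p = 0.0192). Tumor 5 separated from the controls through the size factor, since it held 22 *Krt15* reads against 24 in sgScramble tumor 1, and scaled by exon length and total reads (RPKM) it was at 0.283 against 0.302. Without sgKrt19 tumor 6, sgKrt19 tumor 8 or sgScramble tumor 2, the limma adjusted p was 0.0716, 0.0691 or 0.0535, so that each of these 3 tumors decided the call. None of the 76-base stretches of the *Krt15* transcript, the length of the reads, is shared with another annotated gene.

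*Krt14* encodes the type I keratin of basal cells and lies on the reverse strand at chr11:100203162-100207548. It measured 48.3, 27.7, 70.3 and 27.8 normalized reads in sgScramble tumors and 69.4, 48.0 and 18.9 in sgKrt19 tumors. Tumors 1 and 3 of the control group and 5 and 6 of the other were high, and both groups spanned nearly the same range. The log2 fold change was −0.01 with an SE of 0.462 (limma, adjusted p = 0.987), and 2 SE on either side ran from −0.94 to 0.91. Changes within that range in either direction cannot be told from no change, and the smallest change that would be called was not computed. The direction turned with the library left out, from 0.51 without sgKrt19 tumor 8 to −0.40 without sgKrt19 tumor 5. Of the 76-base stretches of the *Krt14* transcripts 5.59% also occur in *Krt16*, and reads from these cannot be assigned to 1 gene by sequence. The longest coding stretch that both genes share has 134 bases, lies in exon 1 of *Krt14* at chr11:100207017-100207150 on the reverse strand, and is shown because a read from it could come from either keratin (GENCODE M21, lower case throughout).
Krt14 and Krt16: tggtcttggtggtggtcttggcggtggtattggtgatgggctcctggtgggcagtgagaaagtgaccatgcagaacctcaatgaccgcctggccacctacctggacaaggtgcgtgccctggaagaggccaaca

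*Krt5*, the type II partner of *Krt14* in basal cells, lies at chr15:101707070-101712898. It was at 1.86, 0, 1.83 and 0 normalized reads in sgScramble tumors and at 1.16, 3.0 and 14.7 in sgKrt19 tumors. Only sgKrt19 tumor 8, with 14 reads (exact 95% Poisson interval 7.65 to 23.5, counting error only), exceeded 3 reads, and the other 6 tumors held 8 reads together. *Krt5* was below the filter. In a fit with no filter, limma gave a log2 fold change of 1.61 (adjusted p = 0.115) and edgeR one of 2.61 (adjusted p = 0.0507), and 14 of the 18 *Krt5* reads of the sgKrt19 group came from tumor 8.

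The same tumor stood apart in hair follicle keratins. Of 19 hair follicle genes measured, 13 were highest in sgKrt19 tumor 8, and 7 exceeded 3 reads in that tumor only. This list was chosen after the values had been seen, so that the counts describe tumor 8 and do not test it. The share of all genes that were highest in tumor 8 is not given here. *Krt71* and *Krt25*, keratins of the inner root sheath, were at 90.3 and 78.8 normalized reads in tumor 8. In the other 6 tumors *Krt71* did not exceed 1.0 and *Krt25* did not exceed 4.62. *Krt35*, a keratin of the hair cortex, was at 30.5 in tumor 8 and at most 1.16 elsewhere. Summed over the 15 hair keratins of the list, the level was 7.42 to 20.1 in sgScramble tumors, 25.4 and 25.0 in sgKrt19 tumors 5 and 6 and 340.25 in tumor 8. In the sgScramble tumors 8 to 11 of these 15 were at 0, and in tumor 8 only *Krt26* and *Krt72*. *Krt5* and most hair keratins of the list were thus highest in the same tumor, and any part of hair follicle in the *Krt5* value was not tested. *Sox9* and *Tchh*, the only genes of the list past the filter, were not highest in tumor 8. *Padi3* and *Lhx2* had 2 reads and 1 read there, and up to 4 and 2 in another tumor. None of the genes of the list that are not keratins was therefore highest in tumor 8. *Sox9* was at 3942 normalized reads there. *Tchh*, which encodes trichohyalin of the inner root sheath, fell from a mean of 107.6 to 50.1 (log2 fold change −1.16, SE 0.358, adjusted p = 0.0311). The *Tchh* call was lost without any one of sgScramble tumors 2, 3 and 4 and sgKrt19 tumors 5 and 6 (limma adjusted p 0.0536 to 0.108).

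**Figure D2:**
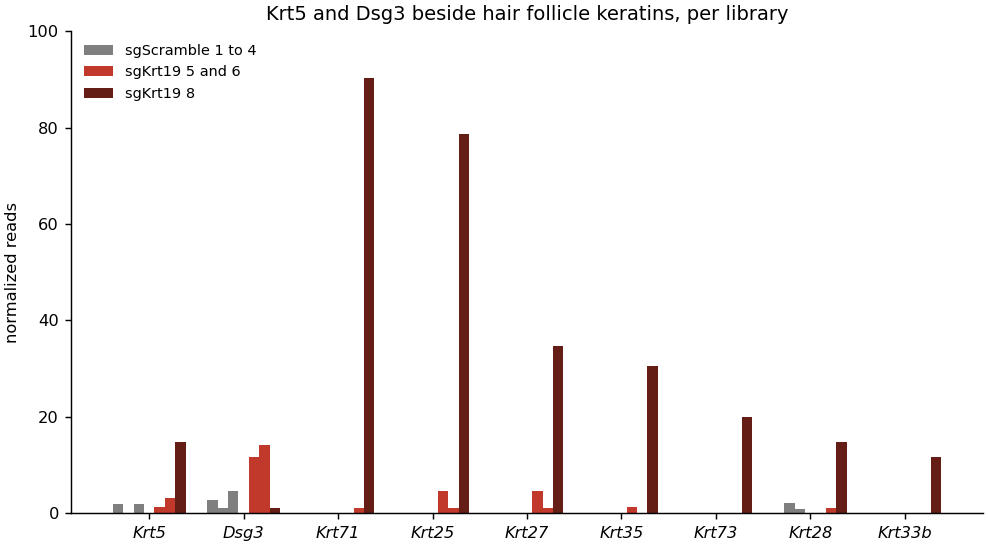
Normalized reads (linear axis from 0) of *Krt5*, *Dsg3* and 7 hair follicle keratins; each bar is 1 tumor, 4 sgScramble in grey, sgKrt19 5 and 6 in red and sgKrt19 8 in dark red. *Krt5* and the hair keratins are high in sgKrt19 tumor 8, where *Krt71* reached 90.3, whereas *Dsg3* is high in sgKrt19 tumors 5 and 6.

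*Trp63*, the master regulator of stratified epithelium, spans chr16:25683763-25892102 on the forward strand. It was low and even in the sgScramble tumors, at 13.0, 15.8, 12.8 and 13.9 normalized reads, and at 9.25, 7.0 and 14.7 in the sgKrt19 tumors. Tumor 8 fell within the control range and tumors 5 and 6 below it. The log2 fold change was −0.45 with an SE of 0.334 (limma, adjusted p = 0.316), and 2 SE on either side run from −1.11 to 0.22. The gene was thus read in every tumor at 7 to 16 reads, spread over 8391 annotated exon bases.

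*Dsg3* encodes desmoglein 3, the desmosomal cadherin of basal and lower suprabasal cells. It was at 2.79, 0.988, 4.57 and 0 normalized reads in sgScramble tumors and at 11.56, 14.0 and 1.05 in sgKrt19 tumors. Tumors 5 and 6 were the highest of all and tumor 8 lay within the control range. Over each group 9 reads and 25 reads were counted, with exact 95% Poisson intervals of 4.12 to 17.1 and 16.2 to 36.9 that cover counting error only. The gene was below the filter, and without it the log2 fold change was 1.52 with limma (adjusted p = 0.182) and 2.01 with edgeR (adjusted p = 0.0688). *Krt5* and *Dsg3*, both basal genes, were therefore high in different tumors of the same group.

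Among the suprabasal genes, *Krt10* was read at the highest level of all 10 genes. It encodes the type I keratin of the spinous layer and lies at chr11:99385254-99389364. *Krt10* measured 155.1, 136.4, 146.1 and 128.9 normalized reads in sgScramble tumors and 180.3, 124.0 and 131.3 in sgKrt19 tumors. Tumor 5 was the highest and tumor 6 the lowest of all, so that the control range lay within that of the sgKrt19 tumors. The means were 141.6 ± 11.4 (SD, n = 4) and 145.2 ± 30.6 (SD, n = 3) normalized reads, and the log2 fold change was 0.02 with an SE of 0.182 (limma, adjusted p = 0.944). Because 2 SE on either side run from −0.34 to 0.38, *Krt10* is the member whose difference was bounded most closely. An antisense gene overlaps 6.91% of its exon bases, and strand-specific counting is not stated.

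The partner of *Krt10* was all but absent. *Krt1*, the type II keratin of the spinous layer, was at 0 in 5 tumors and at 1 read in sgScramble tumor 1 and sgKrt19 tumor 6, against 604 and 405 *Krt10* reads in the groups. *Krtdap* was read only in sgScramble tumor 1, at 6 reads or 5.57 normalized reads, and in sgKrt19 tumor 8, at 1 read. Its promoter and that of *Krt10* are shown because both genes belong to suprabasal cells and both hold the TATA box TATAAA, which 13.6% of 32851 mouse promoters of the same length hold on either strand, at levels of *Krt10* above 100 normalized reads and of *Krtdap* near 0. Each runs from 250 bases before the start site to 50 after it (RefSeq, GRCm38.p6), on the reverse strand at chr11:99389315-99389614 for *Krt10* and on the forward strand at chr7:30787655-30787954 for *Krtdap*. Capitals mark TATAAA and, in *Krtdap*, the AP-1 motif TGANTCA, which 7.81% of all promoters hold.
Krt10: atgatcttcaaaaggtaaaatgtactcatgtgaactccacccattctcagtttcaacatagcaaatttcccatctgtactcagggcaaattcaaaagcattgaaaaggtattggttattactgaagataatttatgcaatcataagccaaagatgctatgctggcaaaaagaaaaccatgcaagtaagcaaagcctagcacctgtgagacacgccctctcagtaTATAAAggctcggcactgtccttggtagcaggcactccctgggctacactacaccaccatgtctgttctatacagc
Krtdap: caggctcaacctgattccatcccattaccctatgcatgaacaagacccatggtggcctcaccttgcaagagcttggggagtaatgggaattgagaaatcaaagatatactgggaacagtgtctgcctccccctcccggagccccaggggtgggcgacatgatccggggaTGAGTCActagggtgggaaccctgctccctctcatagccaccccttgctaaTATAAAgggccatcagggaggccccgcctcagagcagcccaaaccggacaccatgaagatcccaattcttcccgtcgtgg
The TATA box begins 26 bases before the start site in *Krt10* and 30 in *Krtdap*, and the AP-1 motif 81 bases before it in *Krtdap*. The motifs do not overlap. The promoter table held 4 of the 10 genes, and the window of *Krt5* held neither of these motifs, nor the AP-2 motif GCCNNNGGC, which 16.6% of promoters hold. The window given for *Krt14* lies inside the gene as GENCODE M21 places it and is not described as its promoter. A match is a description of the letters and not a binding site.

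The wound keratin genes *Krt6a* and *Krt17* were at the limit of detection. *Krt6a*, a type II keratin of wounded and hyperproliferative epidermis, was at 0, 0, 0.913 and 0.927 normalized reads in sgScramble tumors and at 2.31, 1.0 and 3.15 in sgKrt19 tumors. No tumor exceeded 3 reads, and the groups separated only through the size factors, since sgKrt19 tumor 6 and sgScramble tumors 3 and 4 held 1 read each and in RPKM the groups overlapped. The sums of 2 reads and 6 reads have exact 95% Poisson intervals of 0.242 to 7.22 and 2.20 to 13.1 (counting error only). Of the 76-base stretches of *Krt6a* 50.8% also occur in other genes, mainly *Krt6b*, so that its count is uncertain. The longest coding stretch shared with *Krt6b* has 280 bases in exon 1, at chr15:101693936-101694215 on the reverse strand, and is shown as the reason (GENCODE M21).
Krt6a and Krt6b: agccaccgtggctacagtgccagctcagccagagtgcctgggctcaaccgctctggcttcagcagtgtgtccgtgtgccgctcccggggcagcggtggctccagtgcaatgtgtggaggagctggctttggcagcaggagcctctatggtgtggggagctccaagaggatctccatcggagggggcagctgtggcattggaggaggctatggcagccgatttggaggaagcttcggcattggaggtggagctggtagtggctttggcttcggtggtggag
*Krt17*, a type I keratin of wounded epidermis and hair follicles that shares no stretch of read length with another gene, was at 2.79, 0.988, 0 and 0 in sgScramble tumors and at 1.16, 0 and 1.05 in sgKrt19 tumors, 4 reads against 2 in all.

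Because type I and type II chains pair, the ratios of 3 known pairs were compared on the scale of log2((a + 1)/(b + 1)). *Krt5*:*Krt14* had a mean of −4.61 ± 0.35 (SD, n = 4) with sgScramble and −3.00 ± 2.40 (SD, n = 3) with sgKrt19, a difference of 1.62 (exact permutation test, two-sided p = 0.286, adjusted p over 3 pairs = 0.429). Its values in sgKrt19 tumors were −5.03, −3.61 and −0.34, so that the difference came mainly from tumor 8. The difference in *Krt1*:*Krt10* was 0.08 (exact permutation test, p = 0.914 before and after adjustment) and that in *Krt6a*:*Krt17* was 1.14 (exact permutation test, p = 0.286, adjusted to 0.429). With 35 ways to split 7 tumors, the smallest two-sided p is 0.0571, so that none of the 3 could pass 0.05. In every tumor the type I chain of the first 2 pairs exceeded the type II chain.

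Per length, the keratinocyte keratins lay far below those of simple epithelium. In RPKM, from the recovered reads, the total reads and the exon bases of GENCODE M21, *Krt18* and *Krt8* headed the 53 keratin genes of the table with means over 7 tumors of 1102.5 and 893.5. *Krt10* ranked 8th, at 1.67 ± 0.0839 (SD, n = 4) RPKM for the sgScramble group and 1.46 ± 0.186 (SD, n = 3) for the sgKrt19 group. *Krt14* followed at 0.616 ± 0.284 and 0.544 ± 0.274, and *Krt15* at 0.247 ± 0.0524 and 0.546 ± 0.230. RPKM scales by total reads, and on this scale the sgKrt19 means of *Krt10* and *Krt14* were the lower ones. In normalized reads they were slightly the higher ones, at 145.2 against 141.6 for *Krt10* and 45.4 against 43.5 for *Krt14*. *Krt14* was higher than *Krt15* in each sgScramble tumor. In sgKrt19 tumors 5, 6 and 8 *Krt14* was at 0.775, 0.617 and 0.241 RPKM and *Krt15* at 0.283, 0.703 and 0.653, so that the order turned between tumors. *Trp63* was at 0.0414 ± 0.00454 and 0.0266 ± 0.0111 RPKM. *Krt5*, *Krtdap*, *Dsg3*, *Krt17* and *Krt6a* had means over all tumors of 0.0332, 0.0330, 0.0158, 0.0127 and 0.0110 RPKM, which do not differ beyond their spread, and *Krt1* one of 0.00145. For each read of the 10 genes there were 458 to 491 reads of *Krt8* and *Krt18* in sgScramble tumors and 636 to 890 in sgKrt19 tumors. Of the 53 keratin genes 17 were tested. Of these 5 rose (*Krt8*, *Krt18*, *Krt20*, *Krt80* and *Krt15*) and 2 fell (*Krt19* and *Krt79*), beside 17.9% higher and 16.0% lower of all genes tested.

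**Figure D3:**
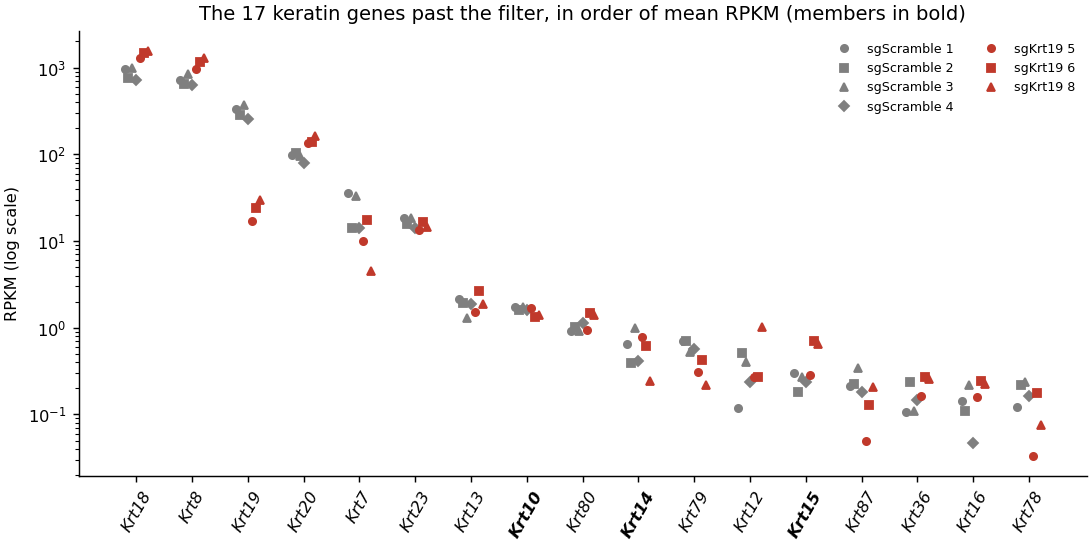
RPKM (log scale) in each tumor of the 17 keratin genes past the filter, ordered by mean, sgScramble in grey and sgKrt19 in red, with members of the keratinocyte set in bold. *Krt18* and *Krt8* head the order with means of 1102.5 and 893.5, *Krt10* has a mean of 1.58, and *Krt15* lies between 0.18 and 0.703.

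*Krt15* is the neighbor of the edited gene: the 2 genes are separated by 4.88 kb on chromosome 11, and their start sites by 12.7 kb. Among 52 other genes with a start site within 500 kb of that of *Krt19*, 22 were tested. Of these 3 were higher and 8 lower in sgKrt19 tumors, beside 17.9% higher and 16.0% lower of all genes tested. The median log2 fold change of the 22 was −0.14, beside 0.01 over all genes tested. All 8 lower genes lay on the side away from *Krt15*, from *Hap1* at 207.5 kb to *Acly* at 379.3 kb, with *Jup* at 249.1 kb. Within this run *Gm10039* (213.5 kb) was at 0.36 and did not pass (limma adjusted p = 0.0721). The cause of the run was not tested. On the *Krt15* side lay *Krt13*, a keratin of internal stratified epithelium (log2 fold change 0.36, SE 0.228, adjusted p = 0.240), and *Krt36* (0.81, SE 0.356, adjusted p = 0.101). On the other side *Krt14*, 58.9 kb from *Krt19*, was at −0.01 and *Krt16*, a type I keratin of wounded epidermis at 100.2 kb, at 0.97 (SE 0.460, adjusted p = 0.126). Of the 5 tested keratin genes around *Krt19* only *Krt15* passed. *Krt19* itself shares no stretch of read length with *Krt15* or any other gene.

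**Figure D4:**
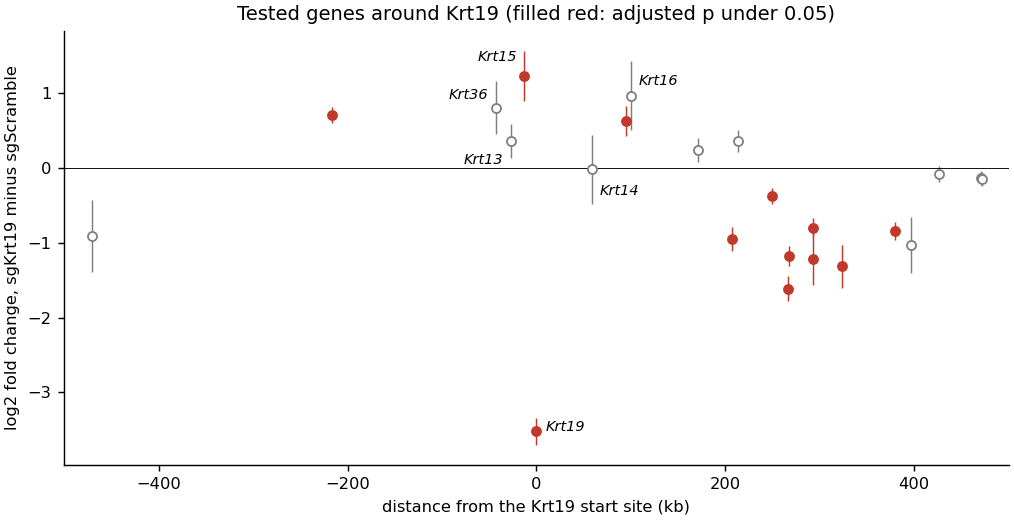
Log2 fold change (sgKrt19 minus sgScramble, limma, bars are SE) of the tested genes against the distance of their start sites from that of *Krt19* (kb); filled red points have an adjusted p below 0.05. *Krt15* (1.23) stands beside *Krt19* (−3.52), and *Krt14* is at −0.01.

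Other genes of the keratinocyte programme were taken as lists by function. Of 20 genes of basal adhesion and attachment 17 were tested, 4 rose and 4 fell, which is 47.1% called beside 34.0% of all genes, with a median log2 fold change of 0.03 beside 0.01. *Serpinb5*, encoding the serpin maspin, rose by 2.01 on the log2 scale (SE 0.344, adjusted p = 0.00195), from 172.5 to 527.9 normalized reads in sgScramble tumors to 1146 to 1384 in sgKrt19 tumors. *Perp*, encoding a desmosomal membrane protein and p63 target, rose by 1.56 (SE 0.184), and *Dsp* (desmoplakin) and *Dsg2*, the desmoglein of simple epithelia, by 1.31 each (SE 0.142 and 0.188). *Cdh3*, encoding P-cadherin of basal cells, fell by 3.73 (SE 0.307, adjusted p = 4.7e-05), from 875.4 to 1379 normalized reads in sgScramble tumors to 44.1 to 126.0 in sgKrt19 tumors. *Pkp1*, the plakophilin of stratified epithelium, fell by 1.27 (SE 0.197), *Jup* (plakoglobin) by 0.38 (SE 0.105) and the integrin gene *Itga3* by 0.35 (SE 0.122, adjusted p = 0.0477). The *Itga3* call was lost with edgeR (adjusted p = 0.0516), and in limma with TMM factors (0.0519) and robust eBayes (0.0528). With no filter it was lost in limma (adjusted p = 0.0766) and in edgeR (0.0996). It was also lost without any one of sgScramble tumors 1, 2 and 4 and sgKrt19 tumors 5 and 8 (limma adjusted p 0.0671 to 0.1498). The *Jup* call was lost without any one of sgScramble tumors 2, 3 and 4 and sgKrt19 tumors 5 and 8 (0.0502 to 0.0770) and with edgeR and no filter (adjusted p = 0.058). *Jup* starts 249.1 kb from the start of *Krt19*, within the run of 8 lower genes given above. Of the untested genes of this list, *Col17a1* was at 9.13 to 11.1 normalized reads in sgScramble tumors and at 5.78, 0 and 7.35 in sgKrt19 tumors. That is 42 reads against 12 in all, and *Dsc3* and *Fat2* did not exceed 3.15 normalized reads.

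Among 18 transcription factors and signals around p63, 14 were tested, 4 rose and none fell, which is 28.6% called beside 34.0% of all genes, with a median log2 fold change of 0.03 beside 0.01. With scaling to library size alone, 2 were higher and 2 lower. *Klf4*, a factor of the epidermal barrier and of simple epithelia, rose by 1.43 (SE 0.154, adjusted p = 0.000183), from 1253 to 1935 normalized reads in sgScramble tumors to 3639 to 4010 in sgKrt19 tumors. *Tfap2a*, encoding the factor AP-2 alpha, rose by 1.25 (SE 0.146), *Gata3* by 0.59 (SE 0.157) and *Klf5* by 0.37 (SE 0.101). On that scaling *Gata3* and *Klf5* did not pass (limma adjusted p = 0.104 and 0.245). The limma adjusted p of *Gata3* was 0.0593 without sgKrt19 tumor 8, and that of *Klf5* was 0.0550 without sgScramble tumor 4 and 0.0634 without sgKrt19 tumor 5. *Grhl3*, *Zfp750*, *Tfap2c* and *Trp73* were below the filter, and none exceeded 4.94 normalized reads.

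Of 36 cornified envelope genes 30 were measured and 13 tested, of which 5 rose and 2 fell, which is 53.8% called beside 34.0% of all genes (median log2 fold change 0.18). With scaling to library size alone the balance turned, with 3 higher and 5 lower. *Lgals7*, encoding galectin 7 of stratified epithelium, rose by 1.77 (SE 0.342, adjusted p = 0.0038), *Ivl* (involucrin) by 1.57 (SE 0.361, adjusted p = 0.0089), the protease gene *Asprv1* by 1.01 (SE 0.321) and *Sprr1a*, a crosslinked envelope protein, by 0.97 (SE 0.257). *Krt80* also rose, by 0.53 (SE 0.151). *Lor*, encoding loricrin, the main protein of the envelope, fell by 1.51 (SE 0.447, adjusted p = 0.0262) and *Evpl* (envoplakin) by 0.58 (SE 0.157). *Ivl* was at 78.8 to 253.6 normalized reads in sgScramble and 356.1 to 582.1 in sgKrt19 tumors, whereas *Lor* was at 15.8 to 33.8 and 4.0 to 13.9. Of the 30 genes 11 never exceeded 3 reads, and *Casp14*, *Dsc1* and *Alox12b* were at 0 in all 7 tumors. Without sgKrt19 tumor 8 only 3 genes of this list passed, all of them higher. Singly, leaving out sgScramble 2 or 3 or any sgKrt19 tumor ended the *Asprv1* call (limma adjusted p 0.0543 to 0.0996), sgScramble 1 or 3 or sgKrt19 6 or 8 the *Lor* call (0.0562 to 0.0882), sgScramble 4 or sgKrt19 5 or 8 the *Evpl* call (0.0506 to 0.0568), sgScramble 3 or sgKrt19 6 or 8 the *Krt80* call (0.0506 to 0.0753) and sgKrt19 5 the *Sprr1a* call (0.0679). *Asprv1* and *Krt80* also missed the threshold with scaling to library size alone (limma adjusted p = 0.0784 and 0.195), and *Asprv1* with no filter (limma adjusted p = 0.0696). Of 11 other stratified keratins 5 were tested, and *Krt79* alone passed, having dropped by 0.79 on the log2 scale (SE 0.252, adjusted p = 0.0344). That call was lost without any one of sgScramble tumors 1 and 2 and sgKrt19 tumors 5 and 8 (0.0582 to 0.1097).

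**Figure D5:**
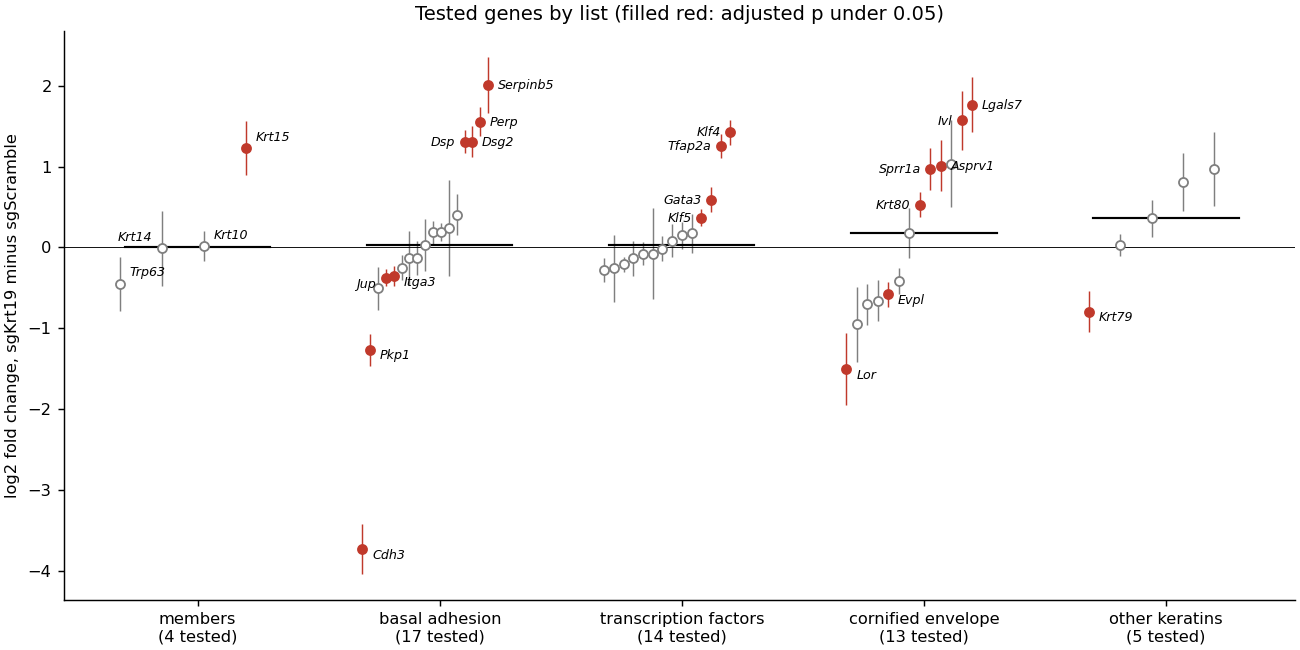
Log2 fold change (sgKrt19 minus sgScramble, limma, bars are SE) of tested genes, by list; filled red points have an adjusted p below 0.05 and black lines are medians. Genes rose and fell in the adhesion and envelope lists (*Serpinb5* 2.01, *Cdh3* −3.73), and of the 4 tested members only *Krt15* (1.23) passed.

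How far the keratinocyte genes varied together was computed for the 4 tested members only, and 7 tumors leave such correlations uncertain. Among the 4 tested members the Pearson correlations of log2(normalized reads + 1) lay between −0.57 (*Krt14* with *Trp63*) and 0.64 (*Krt10* with *Krt14*), over libraries that share group, depth and scaling. *Krt14* followed *Epcam*, an adhesion gene of simple epithelium that was looked at after its values had been seen. *Epcam* measured 1273, 376.5, 1588 and 401.6 normalized reads in sgScramble tumors and 1247, 1169 and 322.4 in sgKrt19 tumors, the same high and low tumors as *Krt14*. Pearson's r was 0.956 and Spearman's rho 0.964, the 2nd highest r of 15228 genes compared, and *Lamb3*, encoding a laminin chain of the basement membrane, was 4th with r = 0.941. *Krt8* (r = 0.0704) and *Krt18* (r = 0.165) did not follow it.

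The genes most like 4 members were also listed, from those with a mean of at least 100 normalized reads. For *Krt10* they were *Npc2*, *Smim8*, *Oaz2*, *Ube2e3* and *Jkamp* (r = 0.992 to 0.976), all highest in sgKrt19 tumor 5. For *Trp63* they were *Nr1d2*, *Mterf4*, *Tmem35b*, *Map7d1* and *Zfp932* (r = 0.984 to 0.967), all lowest in sgKrt19 tumor 6. For *Krt5* they were *Heatr3*, *Dapp1*, *Pdxk*, *Tbl3* and *Ctps* (r = 0.987 to 0.954), all highest in sgKrt19 tumor 8, and for *Krt17*, whose values were all within 3 reads, *Dimt1*, *Mettl6*, *Scoc*, *Yae1d1* and *Mcl1* (r = 0.936 to 0.900). None of these 20 genes was in the keratinocyte lists.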

How the data were processed

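RNA of 7 s/c tumors was sequenced as single 76-base reads. The authors deposited 1 table whose values are a signal, reads per gene divided by a size factor per library. Whole reads were recovered for 100% of values (tolerance 0.01 reads), with 40781199 to 44972100 reads per library, and 3 reads corresponded to 2.74 to 3.47 normalized reads. The submitters' processing notes name the build mm10; the aligner, counter and annotation are not given in the sources used here. Of the gene identifiers 97.74% match GENCODE M21 (GRCm38), which gave positions, exons and lengths. Replicates of a group differed beyond sampling noise (chi-square per degree of freedom 17.2 to 74.2), and since the labels do not say that the tumors came from separate mice, p-values measure only the spread between these tumors.

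limma 3.58.1 (R 4.3.3, trend) was run on log2(value + 1) for the 21322 genes with at least 10 normalized reads in at least 3 libraries, with group as the only term, Benjamini-Hochberg adjustment and a threshold of 0.05; folds of low genes are understated on this scale. edgeR 4.0.16 and DESeq2 1.42.0 on recovered reads, TMM and library-size scaling, other pseudocounts and filters, and each tumor left out were alternatives; edgeR with no filter was added after seeing the data. The fit was tested on simulated data. The text names all 10 members, up to 4 called genes per direction of each list (*Krt80*, a 5th, was added after its values were seen), and the 5 genes most like *Krt5*, *Krt10*, *Krt17* and *Trp63*. Members and lists were chosen with earlier results of these data known. A few listed genes were not analysed here.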

Additional observations from a re-analysis of the deposited data

Results flagged for a closer look

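Among 67 results with 4 sgScramble tumors each, 3 had a tumor whose gap to the nearest of the others was, as a share of the group's range, above Dixon's 95% critical value, where chance gives about 1 in 20. *Klf4* was at 1935 normalized reads in sgScramble tumor 3, a gap of 0.92 of the range. *Krtdap* was at 5.57 normalized reads in sgScramble tumor 1 and *Krt1* at 0.929 in the same tumor, with the other 3 at 0, so that the gap was 1 in both. With 3 values at 0 the gap is 1 for any count, even 1 read. The rate of 1 in 20 therefore does not apply to these 2 flags.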

How the results depend on the processing

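No paired analysis was possible because the groups share no replicate numbers. The number of members called was 1, 0 with a filter on a mean of at least 50 normalized reads, which removes *Krt15* and *Trp63* and *Krt14*, and 0 to 1 with a tumor left out. *Krt15* was higher in all 16 alternatives that gave a value (log2 fold change 0.93 to 1.58, adjusted p 0.00465 to 0.0716) and *Trp63* lower in all 16 (adjusted p 0.153 to 0.653). *Krt10* reversed to −0.20 with library size alone and ranged from −0.15 to 0.12 with a tumor left out, below 0 without sgScramble 4 (−0.02) and sgKrt19 5. *Krt14* reversed to 0.0065 with a pseudocount of 10, 0.0325 with edgeR, 0.0424 with DESeq2 and 0.0499 with edgeR and no filter, and ranged from −0.40 to 0.51 with a tumor left out, above 0 without sgScramble 1 (0.07), sgScramble 3 (0.25) and sgKrt19 8. The cause was not tested. *Krt1*:*Krt10* reversed to −0.0052 with a pseudocount of 10 and ranged from −0.36 to 0.41 with a tumor left out. Cornified envelope calls numbered 3 to 9 over all alternatives, 3 to 7 with a tumor left out, other keratin calls 0 to 1, and hair follicle calls 0 to 1, but 3 with no filter and 8 with edgeR and no filter, where genes read in sgKrt19 tumor 8 enter. Calls over all genes were 4886 to 7971. Library size alone moved the median log2 fold change of all genes to −0.21 and the share of calls that were higher from 52.8% to 27.7%. Low reads limit 6 of the 10 members, which were below the filter. In the limma and edgeR fits with no filter none of these 6 passed 0.05, and the smallest difference that could be detected was not computed.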
